A study of Mus musculus with 4 samples.

Results

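The regions described here are the acetylated sites that were called in Hdac3-deleted chondrocytes with no called site of the control culture anywhere near. They are the peaks of the Hdac3-deleted library with no peak of the control library overlapping them or lying within 10 kb of either edge, and are called isolated peaks below. Of the 13130 peaks of the Hdac3-deleted library, 2684 (20.4%; exact Clopper-Pearson 95% interval 19.8 to 21.1) were isolated. The same rule turned round found 2341 isolated peaks among the 12873 of the control library (18.2%; 17.5 to 18.9). These peaks were chosen by their presence and position in both lists, so their number is a description and carries no test.

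Both cultures were primary chondrocytes of C57Bl/6 mice, the cells that make cartilage, grown ex vivo as dense micromass spots. The Cre culture received an adenovirus with Cre recombinase and is hdac3-knockout by its labels. The GFP culture received a control adenovirus with GFP and is wild-type by its labels, so both had been exposed to an adenovirus. The labels name no floxed allele and no number of animals or cultures, and peak lists of this mark cannot show whether Hdac3 was lost. Histone H3 acetylated at lysine 27 (H3K27ac) was immunoprecipitated and sequenced in 1 library per culture; 2 input libraries were not analysed here. With 1 library per group there is no replicate check, and every difference below is between 2 libraries. A bulk profile cannot tell fewer acetylated cells from less acetylation per cell.

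The labelled cell type was checked against 14 chondrocyte genes, among them Col2a1, Acan and Sox9. All 14 had peaks in the gene or 10 kb either side in both libraries. Of other cell types, 2 of 14 macrophage and leukocyte markers had such peaks in the Cre library and 3 in the other, endothelial markers 1 of 12 in each, and skeletal muscle markers 1 and 2 of 12. Fibroblast and synovial markers had them at 6 and 5 of 14, adipocyte and lipid genes at 4 and 4 of 14, and osteoblast and hypertrophy markers at 3 and 3 of 14. The part of other cells in the isolated peaks was not tested. Median summit pileup, the number of fragments stacked at a peak's highest point, was 12 in both whole lists. The expected genome background was 1.008 fragments for the Cre and 0.949 for the GFP library. The lists hold only peaks above the caller's threshold, so a site missing from the GFP list may be acetylated there at a level under it.

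H3K27ac marks active promoters and enhancers. Acetyltransferases such as p300 and CBP write it, and deacetylases remove it. HDAC3 is the deacetylase of the NCoR and SMRT corepressor complexes, which transcription factors bring to promoters and distal enhancers. In cartilage, chondrocyte genes are controlled largely by distal enhancers bound by SOX9 with SOX5 and SOX6.

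Some isolated peaks sat on known promoters, and 5 reference promoters are shown so that the sequence beside a strong isolated peak can be read. Each run is the 250 bases before a transcription start, 5′ to 3′ on the gene's strand, from RefSeq on GRCm38.p6 (mm10). Capitals mark a CCAAT box (CCAAT), a GC box (GGGCGG) or an ETS site (CCGGAAG) on either strand.
Thap7, chr16:17531053-17531302, minus strand: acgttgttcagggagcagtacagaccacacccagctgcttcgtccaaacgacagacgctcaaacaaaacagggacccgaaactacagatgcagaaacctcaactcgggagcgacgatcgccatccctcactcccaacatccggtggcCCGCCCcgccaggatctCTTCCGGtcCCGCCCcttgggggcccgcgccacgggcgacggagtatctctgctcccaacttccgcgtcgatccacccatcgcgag
Cep20, chr16:14317333-14317582, minus strand: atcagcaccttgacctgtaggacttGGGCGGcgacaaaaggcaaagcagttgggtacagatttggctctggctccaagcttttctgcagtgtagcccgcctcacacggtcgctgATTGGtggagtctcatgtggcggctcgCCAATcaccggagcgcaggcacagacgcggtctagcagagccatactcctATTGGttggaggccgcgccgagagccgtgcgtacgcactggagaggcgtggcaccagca
Vti1a, chr19:55315807-55316056, plus strand: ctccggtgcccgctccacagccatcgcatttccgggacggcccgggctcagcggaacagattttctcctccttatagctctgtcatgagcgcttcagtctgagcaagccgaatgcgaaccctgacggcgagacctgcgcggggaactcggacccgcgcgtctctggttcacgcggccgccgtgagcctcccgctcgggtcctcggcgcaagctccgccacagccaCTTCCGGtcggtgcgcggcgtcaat
Zdhhc6, chr19:55316037-55316286, minus strand: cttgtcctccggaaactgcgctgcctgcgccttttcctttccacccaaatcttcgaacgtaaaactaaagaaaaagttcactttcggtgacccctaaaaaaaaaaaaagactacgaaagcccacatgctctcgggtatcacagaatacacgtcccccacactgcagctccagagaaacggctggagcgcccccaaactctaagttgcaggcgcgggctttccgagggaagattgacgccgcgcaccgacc
Ftsj1, chrX:8252407-8252656, minus strand: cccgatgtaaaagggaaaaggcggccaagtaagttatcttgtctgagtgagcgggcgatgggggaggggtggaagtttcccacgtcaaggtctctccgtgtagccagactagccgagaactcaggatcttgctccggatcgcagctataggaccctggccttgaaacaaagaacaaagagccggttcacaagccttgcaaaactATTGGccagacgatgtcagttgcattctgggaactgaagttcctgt

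The Thap7 promoter, of a zinc finger protein gene, had a summit of 23 fragments 132 bases after the start and no GFP peak for 21.3 kb. Cep20, a centrosome and cilium gene, had a summit of 21 fragments 138 bases after its start, with the nearest GFP peak 44.7 kb away. Vti1a, a vesicle fusion protein gene, and Zdhhc6, a palmitoyltransferase gene, are read in opposite directions from neighbouring starts and shared a peak of 21 fragments. The nearest GFP peak lay 426 kb from it. Ftsj1, a tRNA methyltransferase gene on the X chromosome, had 20 fragments 162 bases before its start, and the nearest GFP peak lay 368 kb away. These 4 peaks therefore stood on either side of the start, and their lack of a near GFP peak is the rule that chose them. Promoter peaks of 21 fragments at Rpl7l1, Zfp868 and Dtwd1 are not printed above. The nearest GFP peak lay 10.4 kb from the first, close to the limit, and 90.6 and 369 kb from the others.

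Isolated Cre peaks touched 174 of 21263 reference promoter windows (0.818%), which run from 250 bases before to 50 after the start of protein-coding genes. Isolated GFP peaks touched 230 (1.08%). The Cre windows belonged to 159 genes and were touched by 154 peaks. A palindromic cAMP response element (TGACGTCA, the site bound by CREB and ATF proteins) lay in 16 of the 174 windows (9.20%; 5.35 to 14.5), which belonged to 14 genes. It lay in 5.22% (2.72 to 8.94) of windows touched by isolated GFP peaks, in 3.86% (2.51 to 5.64) of 648 windows touched by a Cre peak that overlapped a GFP peak, and in 2.23% of all windows. The intervals of the isolated Cre and GFP windows overlap. The element was picked out after the shares of 9 motifs had been seen. Other motifs lay in more of the 174 windows, the GC box in 97, the CCAAT box in 65 and the ETS site in 35. Promoters of 4 of the 14 genes are shown with the element in capitals and up to 15 bases on each side.
Mif, chr10:75860279-75860316, minus strand: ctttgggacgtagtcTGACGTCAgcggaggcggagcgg
Ndufb2, chr6:39592536-39592564, plus strand: cgcagtgcgacgcagTGACGTCAcgggcc
Zfp426, chr9:20492747-20492783, minus strand: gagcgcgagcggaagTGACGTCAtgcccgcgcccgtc
Rpl13, chr8:123102311-123102348, plus strand: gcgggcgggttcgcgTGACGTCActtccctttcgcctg

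Mif, a cytokine gene, had an isolated peak of 20 fragments whose summit lay 163 bases before the start, where the element begins 24 bases before it. Ndufb2, a subunit gene of respiratory complex I, had 16 fragments, and Rpl13, a ribosomal protein gene, had 13. Zfp426 had 15. All 4 elements shown lay within 50 bases before the start, outside the called peak. Other motifs were searched on both strands in the same windows, and windows of 1 gene can overlap. The TATA box (TATAAA) was in 2.87% (0.939 to 6.58) of windows with an isolated Cre peak, in 6.96% of those with an isolated GFP peak and in 12.6% of all. The ETS site was in 20.1% (14.4 to 26.8), 28.7% (22.9 to 35.0) and 11.6%, and the GC box in 55.7%, 54.3% and 46.2%. The CCAAT box was in 37.4%, 39.6% and 38.2%. For the AP-1 site (TGANTCA) the shares were 4.60%, 2.61% and 6.99%, and for the STAT site (TTCNNNGAA) 10.3%, 7.39% and 7.69%. The palindromic NRF1 site was in 3.45%, 4.78% and 1.33%, and the E-box (CACGTG) in 7.47%, 13.0% and 7.84%. Windows touched by a Cre peak that overlapped a GFP peak also differed from all windows. Their shares were 8.95% for the TATA box, 25.5% for the ETS site, 53.5% for the GC box and 32.3% for the CCAAT box. They were 5.56% for the AP-1, 8.49% for the STAT and 3.24% for the NRF1 site, and 10.6% for the E-box. A match is a description of the letters and not a bound site.

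Isolated Cre peaks were narrow and weak. Their median width was 174 bp (quartiles 147 and 227, range 147 to 896), against 202 bp for the other Cre peaks and 173 bp for isolated GFP peaks. The narrowest width the list holds, 147 bp, was that of 684 isolated peaks (25.5%) and of 17.8% of all Cre peaks. Median summit pileup was 11 fragments (quartiles 10 and 13, range 7 to 26), against 12 in the other Cre peaks and 11 in isolated GFP peaks. A pileup of 15 or more was reached by 298 (11.1%), and one of 20 or more by 30 (1.12%). Their median fold enrichment, a value of the authors' caller, was 5.65. A stricter match is the 881 Cre peaks that overlap 1 GFP peak with no other GFP peak within 10 kb; their median pileup was 13, and 39.95% of them reached 15. Strength and the rule went together: 552 of 1840 Cre peaks of 7 to 9 fragments were isolated, and 30 of 759 of 20 or more.

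The 10 kb limit cut through peaks of like strength. Just inside it were a peak 10010 bp from the nearest GFP peak at 2310022B05Rik (12 fragments) and one 10059 bp away in the kinase gene Dyrk1a (11). Just outside were a peak 9999 bp away in D630045J12Rik (8 fragments), one 9994 bp away in Shf (12) and one 9986 bp away near Btbd3 (9). Most members lay much farther off, at a median of 57105.5 bp, and 972 (36.2%) had no GFP peak within 100 kb.

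Isolated Cre peaks lay farther from gene ends than isolated GFP peaks. Peaks inside genes are measured to a gene end too, so this is not a distance from genes. The median distance from the summit to the nearest end of a protein-coding gene was 10964.5 bp (95% interval of the median 9639 to 13066; quartiles 1028 and 42236). It was 5719 bp for isolated GFP peaks, 6109 bp for the other Cre peaks and 928 bp for Cre peaks with a solitary GFP partner. In the whole lists the medians were 7052.5 bp for Cre and 5886 bp for GFP peaks, a smaller gap. More than 50 kb separated 22.1% (20.5 to 23.7) of isolated Cre and 17.6% (16.0 to 19.2) of isolated GFP peaks from any gene end. More than 100 kb separated 299 of the isolated Cre peaks (11.1%) and 8.76% of the isolated GFP peaks.

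**Figure D1:**
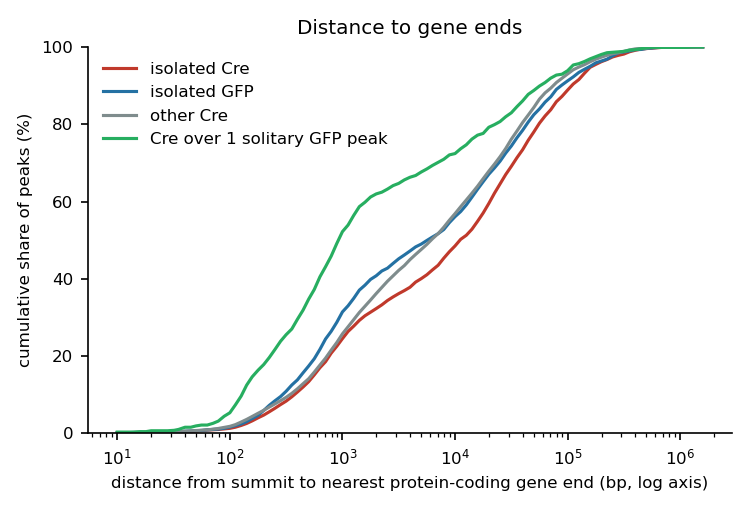
Cumulative share of peaks (percent, vertical axis) by distance from the summit to the nearest protein-coding gene end (bp, log scale, horizontal axis) in 4 sets of peaks. The curve of isolated Cre peaks reaches 50% at 10964.5 bp, that of isolated GFP peaks at 5719 bp, and that of Cre peaks with a solitary GFP partner at 928 bp.

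By the summit, 658 isolated Cre peaks (24.5%; 22.9 to 26.2) lay at a gene boundary, within 1 kb of either end of a protein-coding gene. Gene interiors held 1287 (48.0%; 46.0 to 49.9) and intergenic sequence 739 (27.5%; 25.9 to 29.3). Of isolated GFP peaks, 31.4% (29.6 to 33.4) were at a boundary, 49.6% (47.5 to 51.6) in an interior and 19.01% (17.4 to 20.7) intergenic. The intergenic share was therefore higher and the boundary share lower among isolated Cre peaks, with intervals that did not overlap. Such intervals treat each peak as independent and do not measure variation between libraries. Over whole lists the intergenic shares were 21.7% of Cre and 19.3% of GFP peaks, a smaller gap. Peaks close together are not independent, and with only the strongest peak of each group of neighbours kept the intergenic shares were 25.3% and 18.5%. Local expected pileup was above the genome background at 35.1% of isolated Cre and 21.3% of isolated GFP peaks. The whole lists differed likewise, with 42.2% of all Cre and 29.0% of all GFP peaks above it. Among isolated peaks at the background the intergenic shares were 26.5% (24.5 to 28.7) for Cre and 18.9% (17.2 to 20.8) for GFP. Whether the difference in shares belongs to the deletion or to the libraries cannot be told apart.

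In the Cre set the intergenic share was higher among stronger peaks. Of isolated Cre peaks with 7 to 9 fragments 24.3% were intergenic, with 10 to 14 fragments 26.99%, with 15 to 19 fragments 36.6% (30.8 to 42.6), and with 20 or more 40% (22.7 to 59.4) of 30. The isolated GFP shares were 18.9%, 18.9%, 19.7% (14.2 to 26.2) and 23.8% (8.22 to 47.2). The boundary share was also higher among stronger peaks in both sets, going from 20.8% to 34.0% in the Cre and from 25.04% to 45.4% in the GFP set between the lowest and the 15 to 19 class. Of Cre boundary peaks whose strand was known, 497 of 546 (91.0%) were at the 5′ end, against 92.5% in the GFP set. Of the intergenic Cre peaks 182 (24.6%) lay inside a long non-coding RNA gene, against 23.4%. Interior Cre peaks sat in genes of a median 99.1 kb, and 67 (5.21%) sat in genes over 500 kb. For interior isolated GFP peaks these were 89.4 kb and 5%, and for all interior Cre peaks 87.5 kb and 4.53%.

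**Figure D2:**
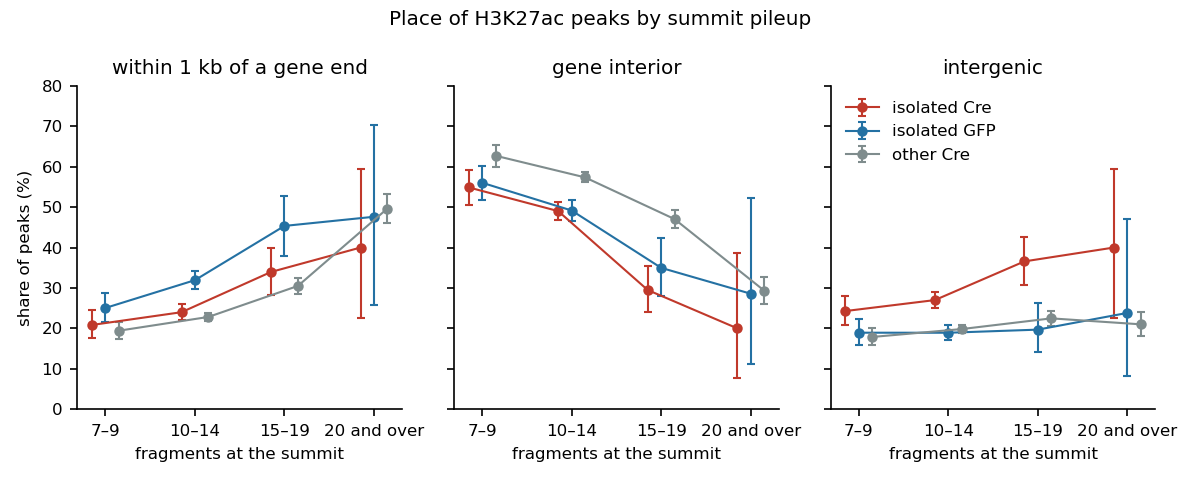
Share of isolated Cre, isolated GFP and other Cre peaks (percent) at gene boundaries, in interiors and in intergenic sequence, by class of summit pileup (fragments), with bars for exact 95% intervals. In the class of 15 to 19 fragments the intergenic share is 36.6% in the Cre and 19.7% in the GFP set.

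The strongest isolated peaks lay at promoters, inside genes and far from them. The highest, of 26 fragments, lay inside Slc24a3, a sodium, potassium and calcium exchanger gene, 154 kb from its nearest gene end and 403 kb from a GFP peak. Atg10, which conjugates autophagy proteins, had 25 fragments 281 bp from its gene end. Cdkn2aip, a p53 pathway gene, had 24 fragments at its boundary, and a peak of 24 lay 122 kb from Wdr75. Sh3gl1, an endophilin gene, and Epp13 had 22 fragments at and 1999 bp from a gene end, and Zdhhc17, a palmitoyltransferase gene, had 22 in its interior. Errfi1, an inhibitor of the EGF receptor, had a peak of 22 fragments 54.6 kb away, and Nicn1 one of 23 at 10001 bp. Kcnk2, a potassium channel gene, Zfp868 and Itga11, a collagen-binding integrin gene, had 21 each, the last at 50.7 kb. Of these 15, those of Atg10, Cdkn2aip, Thap7, Sh3gl1 and Zfp868 lay at a gene boundary. The tie of 9 peaks at 21 fragments was broken by fold, and of the 6 left out 4 lay at a boundary.

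The widest isolated peak covered 896 bp inside Sod2, the mitochondrial superoxide dismutase, with 19 fragments. Cdc42se2 held one of 784 bp (14 fragments), and one of 729 bp lay 27.2 kb from Lvrn. Nfil3, a leucine zipper repressor of the circadian clock, held one of 653 bp with 17 fragments, and Enpp2, which makes lysophosphatidic acid, one of 642 bp with 15. Impa2 and Eps8 held peaks of 653 and 642 bp, and Atp5pb, an ATP synthase subunit gene, one of 674 bp at its boundary. Only 35 isolated peaks (1.304%) were 500 bp or wider.

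The members farthest from genes often came in pairs. The peaks most distant from any gene end lay 1326005 and 1325433 bp from Zeb2, a zinc finger repressor gene, with 17 and 15 fragments and no GFP peak for 1331 kb. A pair of 10 and 13 fragments lay 697 and 695 kb from Tbl1xr1, which encodes a subunit of the NCoR and SMRT complexes, and a pair of 18 and 11 lay 611 and 610.3 kb from Mef2c, a regulator of chondrocyte hypertrophy. Single or paired peaks followed near Zfp608 (631 kb, 17 fragments), Fzd8, a Wnt receptor gene (569 kb, 11 fragments), and Nr5a2, a nuclear receptor gene (548 kb, 11 and 16 fragments). A nearest gene is a position and not an assigned target.

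Isolated Cre peaks were spread over all 21 chromosomes, and 14 of the 21 held more isolated Cre than isolated GFP peaks. Among the autosomes chromosome 14 had the highest Cre share of isolated peaks, with 128 against 72, or 64% (56.9 to 70.6) where the whole genome had 53.4%. Chromosome 10 had 175 against 114, and chromosome 8 had 148 against 108. Chromosome 11 leaned the other way, with 163 against 208 (43.9%; 38.8 to 49.2). On X, 33 of 92 Cre peaks were isolated and 42 of 98 GFP peaks.

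**Figure D3:**
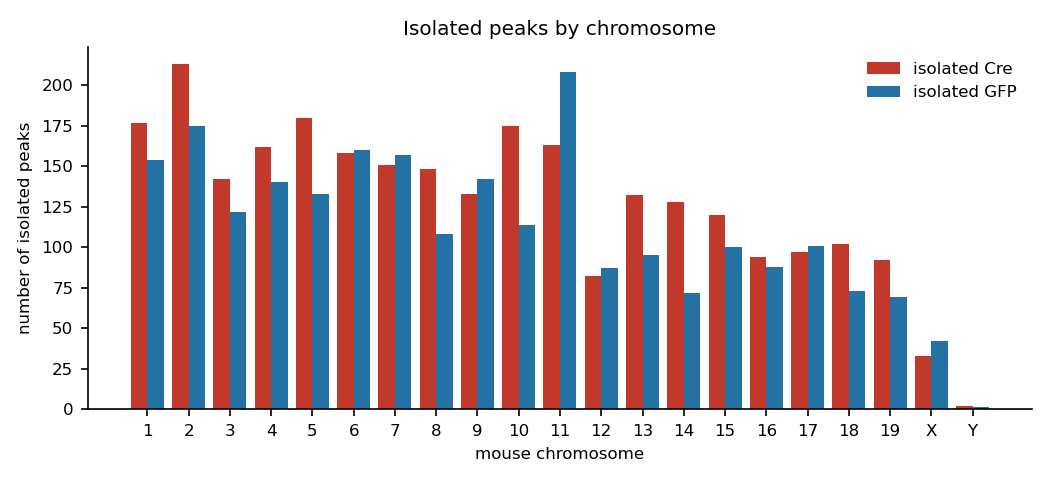
Number of isolated peaks per chromosome in the Cre and GFP lists. The Cre count exceeds the GFP count on 14 of 21 chromosomes, with 128 against 72 on chromosome 14, and falls short on chromosome 11 (163 against 208).

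Many isolated peaks had company of their own kind. Another isolated Cre peak lay within 10 kb of 1122 members (41.8%; 39.9 to 43.7), and 38.1% (36.2 to 40.1) of isolated GFP peaks had one of theirs. Chained at this distance, the Cre set made 456 groups of 2 or more peaks and 20 groups of 5 or more, and the GFP set made 380 and 10. The largest group held 9 Cre peaks and 10 GFP peaks, the latter at Rbfox2, a splicing factor gene. These groups are called runs in the plot of their peaks, and those described next were picked for their size.

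The group at Junb, an AP-1 transcription factor gene, ran from 84974828 to 84990411 on chromosome 8 and reached from the edge of Prdx2, a peroxiredoxin gene, into Hook2. Its 9 summits held, from left to right, 13, 9, 11, 11, 22, 16, 10, 11 and 16 fragments. The peak of 22 fragments lay 1151 bp from the Junb gene end, and that of 16 at the right was inside Hook2. No GFP peak lay within 34.9 kb of the group. Rnaseh2a, the next gene to the left, had 4 isolated peaks in its neighbourhood, which it shares with this group, and Best2 to the right had none.

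The group near Dcn, which encodes the small proteoglycan decorin, also had 9 peaks, from 97436478 to 97445072 on chromosome 10. Their pileups were 11, 16, 13, 17, 14, 16, 11, 12 and 10 fragments, and the nearest lay 34.4 kb from Dcn. The gap to the nearest GFP peak was 10.4 kb, close to the limit, so the group is isolated by a small margin. Dcn itself, with 10 kb either side, had 16 Cre and 7 GFP peaks.

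Rnf11, a ubiquitin ligase adaptor gene, had 8 chained peaks over 10.3 kb at its upper end on chromosome 4, with 9 to 15 fragments. In the gene and 10 kb either side there were 10 Cre peaks and no GFP peak. Near Spata18, a mitochondrial quality gene, 6 peaks with 11, 17, 18, 16, 14 and 11 fragments lay within 3.56 kb, 20.3 kb from the gene and 390 kb from a GFP peak. Near Mmp12, the macrophage elastase gene, 6 peaks of 8 to 18 fragments lay 4958 bp from the gene within the metalloproteinase cluster of chromosome 9, and the nearest GFP peak was 497 kb away. In that cluster Mmp1b and the stromelysin gene Mmp3 had 1 isolated peak each in their neighbourhoods, Mmp13 had none, and none of the 4 had a GFP peak. Hipk2, a nuclear kinase gene, and Gfpt1, the rate-limiting enzyme of hexosamine synthesis, held 6 chained peaks each within 5.56 and 5.46 kb. On chromosome 16 a group of 6, with up to 22 fragments, lay 337 kb from Setd4 and 411 kb from Runx1, and on chromosome 14 a pair of groups of 6 lay 102 and 144 kb from Serp2.

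**Figure D4:**
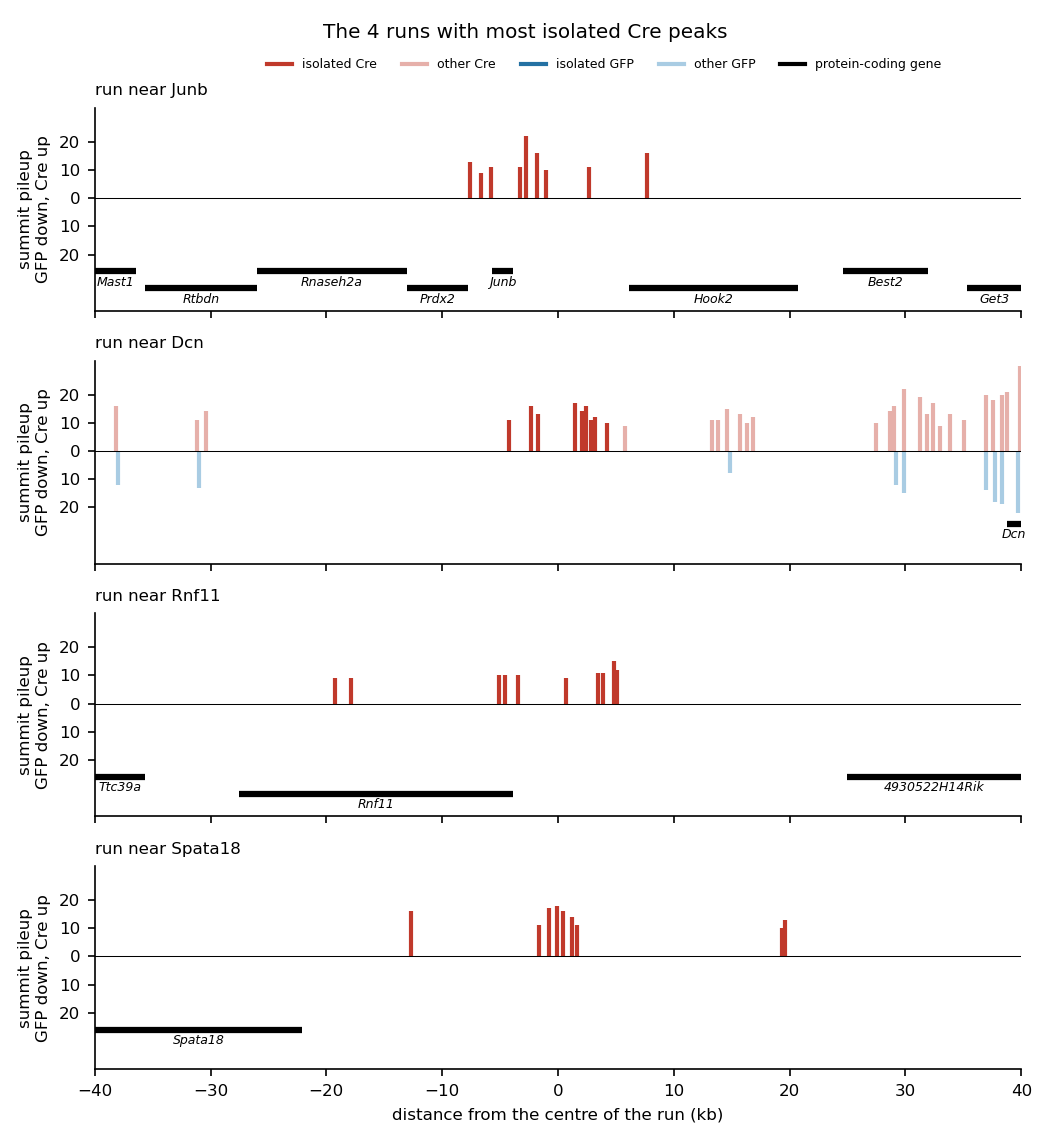
Peaks of both libraries around 4 groups of isolated Cre peaks, by distance from the middle of the group (kb, horizontal axis) and summit pileup (fragments, vertical axis; Cre upward, GFP downward), with gene bodies below. The 9 peaks at Junb and near Dcn, 8 at Rnf11 and 6 near Spata18 have no GFP peak within 10 kb; at Dcn the nearest is 10.4 kb away.

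Of 21887 protein-coding genes, 1248 (5.7%) held an isolated Cre summit in the gene body and 323 (1.48%) held 2 or more. For isolated GFP peaks the counts were 1199 (5.48%) and 298 (1.36%). Both kinds numbered 2 or more in 30 genes. These were 9.29% of the Cre genes, where 1.36% of all protein-coding genes held 2 or more isolated GFP peaks. They were 10.1% of the GFP genes, where 1.48% of all held 2 or more isolated Cre peaks. Among the 323, 221 held exactly 2, 102 held 3 or more, and 23 held 5 or more, against 99 and 18 genes in the GFP set for the last counts. Such genes were long, with a median of 91.9 kb against 39.7 kb for genes with 1 isolated Cre peak and 17.2 kb for all genes. No GFP peak of any kind lay in the body of 180 of the 323 (55.7%), and no Cre peak in 179 of the 298 (60.1%).

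The chondrocyte regulators Sox6 and Trps1 held the most, 9 isolated Cre peaks each. In Sox6, a partner of SOX9 at cartilage enhancers, their pileups were 9, 13, 11, 12, 11, 12, 16, 9 and 13 fragments across 528 kb of a 570 kb gene. In Trps1, a GATA-type repressor of the growth plate, they were 18, 12, 11, 10, 8, 10, 8, 15 and 10 across 67.0 kb. Both genes were acetylated in the control too, with 34 Cre and 25 GFP peaks in Sox6 and 39 and 27 in Trps1, of which 5 and 2 were isolated GFP peaks. Fndc3b, a fibronectin type III domain gene, held 7 isolated among 88 Cre peaks, beside 52 GFP peaks. These 3 genes held many acetylated sites in both cultures besides the isolated ones.

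Other genes held isolated peaks and no GFP peak at all. Rad51b, a recombination repair gene of 551 kb, held 7 Cre peaks with 11, 9, 12, 10, 14, 12 and 12 fragments. Sgcd, the delta-sarcoglycan gene of muscle membranes, held 6 with 10, 8, 14, 18, 14 and 12 within 73.6 kb. Nrp2, a coreceptor for semaphorins and VEGF, held 6 with 11, 8, 10, 10, 16 and 13 within 17.97 kb of a 115 kb gene. No GFP peak lay in these 3 genes or 10 kb either side, so every Cre peak of their bodies is isolated by the rule.

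Between these extremes, Tgfbr3, the TGF-β coreceptor betaglycan, held 6 isolated among 12 Cre peaks beside 2 GFP peaks. Capzb, an actin capping subunit gene, held 6 among 24 beside 2, and Gfpt1 6 among 8 beside 2, or 12.2 isolated peaks per 100 kb. Zfp385b held 6 isolated Cre peaks, Hipk2 6 and Zbtb7c 6, beside 2, 1 and 1 isolated GFP peaks. Stard13, Stxbp6 and Vps13d, a lipid transfer gene, held 5 each, beside 3, 1 and 2 isolated GFP peaks. Of 11 genes tied at 5 isolated peaks, these 3 had the highest summed pileup. Counting every peak, Stard13 held 15 Cre and 19 GFP peaks, Stxbp6 5 and 1, and Vps13d 29 and 28. Zfp385b held 14 and 7, Hipk2 7 and 2, and Zbtb7c 6 and 1. Pileups in the 15 genes named ran from 8 to 18 fragments, so none of their peaks was among the strongest.

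**Figure D5:**
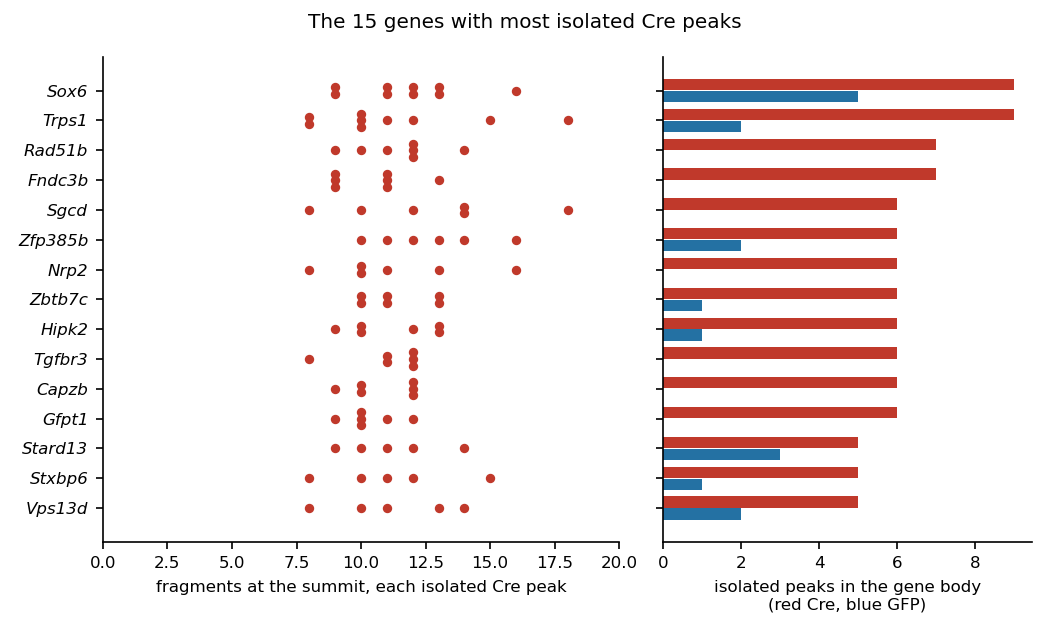
Summit pileup (fragments) of every isolated Cre peak in the 12 genes that hold 6 or more and the 3 of highest summed pileup among 11 that hold 5, 1 point per peak (left), and the number of isolated Cre and GFP peaks in each gene body (right). Points lie between 8 and 18 fragments; Sox6 and Trps1 have 9 each, beside 5 and 2 isolated GFP peaks.

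Gene lists chosen for this tissue were read against the share of all protein-coding genes with an isolated peak in the gene or 10 kb either side, 9.12% (1997 genes) for Cre and 8.93% (1955) for GFP. Long genes hold more peaks, so median lengths are given beside the counts of lists whose genes are much longer or shorter than the 17.2 kb of all genes. Over the 15 lists, 57 of 273 distinct genes had an isolated Cre and 42 an isolated GFP peak.

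Among chondrocyte transcription factors 11 of 24 had isolated Cre peaks (34 peaks) and 8 isolated GFP peaks (18 peaks), in genes of a median 130 kb. Besides Sox6 and Trps1, Sox5, the other SOX9 partner, had 4 of 10 to 12 fragments beside 2 isolated GFP peaks. Nkx3-2, a repressor of chondrocyte hypertrophy, had 2 peaks of 12 fragments and no GFP peak. Zfp521 had 2 of 12 fragments and Gli3, of the hedgehog pathway, 1 of 10, while Mef2c and Gli2 had isolated GFP peaks only (3 and 1). Of the chondrocyte markers 3 of 14 had isolated Cre peaks, namely Acan (11 and 10 fragments), Col11a1 (10 and 11) and Col11a2 (10), and 2 had isolated GFP peaks. All were interior peaks in genes acetylated in both cultures.

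AP-1 and immediate-early genes are short, with a median of 7.42 kb, and 6 of 23 had isolated Cre peaks (15 peaks) against 3 with isolated GFP peaks (3 peaks). The Junb neighbourhood accounted for 8 of the 15, of which that of 13 fragments lay nearest to Prdx2 and 1 of 11 nearest to Hook2. Fosb had 2 of 15 and 11 fragments, Fos 1 of 11, Jun 1 of 9, and Fosl2 2 of 8 and 9, the last in a gene with 10 peaks in each library. The Fosl1 neighbourhood had 1 of 12 fragments, which lay nearest to Fibp. Jund and the immediate-early genes Egr2 and Ier2 had 1 isolated GFP peak each, of 10, 14 and 13 fragments. No gene of this mixed list had isolated peaks of both kinds. The rule allows no GFP peak within 10 kb of an isolated Cre peak, which leaves little room for both around short genes. Nor did any gene of the adipocyte, osteoblast, Akt, NF-κB and JAK-STAT lists below have both, so this is not particular to the AP-1 list.

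Of adipocyte and lipid genes 3 of 14 had isolated Cre peaks and 1 an isolated GFP peak. Cebpb, a leucine zipper factor of inflammation and fat cells, had 5 of 16, 8, 10, 9 and 8 fragments and no GFP peak. Scd1 and Srebf1, of fatty acid synthesis, had 1 each of 10 and 11 fragments, the latter inside the neighbouring gene Rai1, and Fasn had 3 isolated GFP peaks. In the cytokine, protease and inhibitor list 8 of 24 had isolated Cre and 4 isolated GFP peaks, with 8 peaks each. Adamts4, an aggrecanase gene, had 1 of 14 fragments, nearest to B4galt3, Mmp3 1 of 13, Ctsk, the cathepsin K gene, 1 of 12, and the collagenase gene Mmp14 1 of 11. The inhibitor genes Timp2 and Timp3 had 1 each of 10 fragments, beside 1 and 3 isolated GFP peaks, and Timp1 had isolated GFP peaks only (2).

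Of Akt, Phlpp and mTOR genes, which carry growth signals, 7 of 20 had isolated Cre and 4 isolated GFP peaks, in genes of a median 81.9 kb. Pik3r1, a kinase regulatory subunit gene, had 1 of 14 fragments, Rptor 2 of 13 and 10, and Foxo3 1 of 13. Phlpp1, an Akt phosphatase gene, had 1 of 10. None of the 7 had an isolated GFP peak, and the rule itself bars GFP peaks within 10 kb of each isolated Cre peak. Pik3r2 (2), Mtor, Pdpk1 and Gsk3b (1 each) had isolated GFP but no isolated Cre peaks. Gsk3b had 4 peaks of any kind in each library. For NF-κB genes the counts were 4 and 3 of 21, with 4 interior peaks of 10 to 11 fragments in Nfkb1 and 1 of 12 at the boundary of Nfkbia, its inhibitor. For JAK-STAT genes, of a median 37.9 kb, they were 4 and 2 of 22, with Bcl3, held by both lists, at 2 of 12 fragments, Stat2 at 1 of 10 and Stat3 at 1 of 9.

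Corepressor and deacetylase genes had fewer members with isolated Cre than with isolated GFP peaks, 3 against 7 of 20, in genes of a median 43.4 kb. Hdac9 had an isolated Cre peak of 15 fragments, Hdac2 1 of 11 and Ncor1, the corepressor that binds HDAC3, 1 of 9. The GFP members were Hdac2, Hdac4, Hdac7, Hdac10, Hdac11, Tbl1x and Sin3a. Tbl1x and Sin3a had 2 isolated GFP peaks each, and every other membership in this list rested on 1 peak per library. The remaining lists were small: osteoblast and hypertrophy markers had 2 and 1 of 14 (Vegfa 2 of 13 and 10 fragments, Sparc 1 of 8), and fibroblast and synovial markers 3 and 2 of 14 with a median of 35.0 kb (Col3a1 2 of 11 and 12, Dcn 1 of 12, and S100a4 1 of 9, which lay 43 bp from S100a6). Neuronal adhesion genes, very long with a median of 1176 kb, had 3 and 3 of 30, namely Pcdh9, Auts2 and Robo2 for Cre. Markers of other cell types had few: macrophage and leukocyte 0 and 1 of 14, endothelial 1 and 1 of 12 with a median of 53.7 kb (Erg in both), and skeletal muscle 0 and 1 of 12.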

How the data were processed

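Peak lists of H3K27ac from 1 Cre and 1 GFP library were analysed. Per the submitters' processing notes, reads in build mm10 were handled with BWA, Picard, SICER and bcl2fastq 1.8.4. The deposited lists have the column order of MACS2; its version, its settings and the control used were not given in the sources used here. Peaks were called per library. Per the file contents, the deposited score was 10 times the −log10 q-value cut to a whole number. At each summit the deposited lists also give a fold enrichment (a ratio), a −log10 p-value and the matching −log10 q-value, all the authors' own. Fold and −log10 p were solved together for the whole-number summit pileup and the expected pileup (Poisson tail, 1 added to both in the fold), and 100% of peaks were whole within 0.001. The solver was tested on simulated data. Total read numbers are unknown here.

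A peak was isolated when no peak of the other list lay within 10 kb. Place was assigned by the summit from RefSeq genes of GRCm38.p6 (21887 protein-coding genes; 17492 had promoter windows with strand, none on chromosome 18). Intervals are exact Clopper-Pearson at 95%, for counting error only. Named genes were the 15 with most isolated peaks, those nearest to the 15 highest, 10 widest and 10 farthest peaks, the 3 on each side of the limit, and up to 6 members of each of 15 lists; not all are printed, and some results are not reported here. The members and lists were chosen with earlier results of these data known. Groups of peaks, their neighbouring genes and the TGACGTCA promoters were chosen after their values were seen. Alternatives were other limits (5, 20 and 50 kb), thresholds, boundary windows, peaks merged within 500 bp, and peaks at background level. Python 3.11.15, numpy 2.4.6, pandas 2.3.3, scipy 1.17.1 and matplotlib 3.10.9 were used.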

Additional observations from a re-analysis of the deposited data

How the results depend on the processing

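The 8 summary values were recomputed under each alternative, and 33 of 64 recomputed values moved by less than their counting interval or, for counts, stayed within 1.5 times. With a limit of 50 kb there were 1452 isolated Cre peaks (boundary 26.6%, interior 42.3%, intergenic 31.1%) and 153 genes with 2 or more. Requiring 5 or more for the −log10 q-value left 1410 (width 180 bp, pileup 13, boundary 27.02%, interior 43.3%, intergenic 29.7%) and 122 such genes. Among the top 5000 peaks of each list there were 1574 (width 197 bp, pileup 14, distance 7652 bp, boundary 30.2%, interior 43.2%) and 142 such genes. At the background expected pileup, an alternative chosen after seeing the data, there were 1741 (distance 9337 bp) and 172 such genes. A limit of 5 kb gave 22.9% boundary and 50.6% interior, and one of 20 kb gave 26.4% and 45.0%. A boundary window of 500 bp gave 13.3% boundary, 57.1% interior and 29.5% intergenic, and one of 2.5 kb gave 34.3% boundary and 39.7% interior. Fewer peaks enter under the stricter settings; the cause of the other shifts was not tested. Under the main setting and the 10 alternatives, isolated Cre peaks had the higher intergenic share, the lower boundary share and the larger median distance in all 11, the intergenic gap running from 7.29 to 12.1 percentage points. Isolated Cre peaks outnumbered isolated GFP peaks in 10 of the 11, the exception being peaks at the background expected pileup (1741 against 1842). All settings reuse the same pair of lists, so they are not independent checks. The boundary windows of 500 bp and 2.5 kb cannot change the number of isolated peaks or the median distance. Single peaks rest on 7 to 26 fragments, and the part of counting error in the absence of a peak from the other list was not tested. No paired analysis was possible because each group has 1 library.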
